A study of Rattus norvegicus with 10 samples.

Results

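The genes described here are 35 that encode the synaptic vesicle and its release machinery: vesicle proteins, calcium sensors, SNARE proteins, complexins, SNARE recycling factors, active zone proteins and proteins of vesicle endocytosis. They were taken from a fixed list of gene symbols. All 35 were among the 17168 genes of the deposited tables, and all 35 passed the filter on low counts that left 12161 genes for testing. Sequencing used RNA of the left hippocampus from 10 TgF344-AD rats, all male and killed at the age of 11 months. Both groups carried the line's human transgenes with Alzheimer's disease mutations, which the mouse prion promoter drives. In the untreated group 5 rats ate plain rodent chow. The RG2833 group of 5 rats ate chow with 750 mg of RG2833 per kg for 6 months, from 5 months of age. RG2833 inhibits the histone deacetylases HDAC1 and HDAC3. The sentence of the design text that gives this timing names another drug, ibudilast, while the sample labels, the title and the rest of that text name RG2833. All rats were perfused under ketamine and xylazine, and each library is 1 rat. The question was how the drug affects gene expression in the hippocampus of transgenic males.

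At a synapse, vesicles filled with transmitter are held near the presynaptic membrane by an active zone scaffold. They are primed when a vesicle SNARE, synaptobrevin, zips together with the membrane SNAREs syntaxin and SNAP-25. Complexin clamps the assembled complex until calcium binds synaptotagmin, and the membranes then fuse. The ATPase NSF and its SNAP adaptors pull spent SNARE complexes apart, and dynamin, amphiphysin, endophilin and synaptojanin retrieve the vesicle membrane. In the hippocampus most of these proteins serve the glutamatergic terminals of granule and pyramidal neurons, with distinct family members enriched in fast-spiking interneurons.

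Depth was similar across libraries, at 15118200 to 18533500 counts. Together the 35 genes took 1.70% ± 0.197 of the counts in untreated and 1.62% ± 0.136 in RG2833 libraries (SD, n = 5 each; two-sided exact permutation p = 0.540). Hippocampal markers were present in every library. Of the dentate markers, Tdo2 was at 0 in all 10. Untreated replicate 3 stood apart from the rest of its group. Its dentate granule cell markers (3 of 7 tested, among them Prox1) summed to 28.3 counts per 1000000 (CPM), where the remaining untreated libraries held 109 to 228 and RG2833 libraries 86.6 to 185 CPM. Its CA3 pyramidal cell markers (2 of 5 tested) summed to 63.5 CPM, and those of its group mates to 182 to 216 CPM. The lowest CA3 sums in RG2833 rats were in replicates 5 and 4, at 98.1 and 121 CPM. Untreated replicate 2 and RG2833 replicate 1 held choroid plexus RNA, with marker sums of 7639.5 and 8966 CPM, where no other library exceeded 268 CPM. RefSeq lists another protein-coding gene that overlaps Syn1, Syn2, Syn3, Rab3a, Sncb, Syt1 or Doc2a; the counting is not stated to use strand, so the counts of these 7 genes are uncertain.

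None of the 35 genes differed between RG2833 and untreated rats at an adjusted p under 0.05. The test was edgeR's quasi-likelihood test with Benjamini-Hochberg adjustment over all 12161 genes, of which 0 passed (0%). In this fit the smallest adjusted p of a member was 0.841. At an unadjusted p under 0.05 there was 1 member, Syt2, or 1 of 35 (higher in RG2833 rats), where 5.66% of all genes tested (688) lay under that threshold, 2.94% with a higher and 2.71% with a lower mean. The groups overlapped in log2 CPM in all 35 members, where 1.00% of all genes tested did not overlap. The log2 fold change was above 0 for 14 members and below 0 for 21. Its median was -0.05, and that of all genes was -0.01. Leaving out untreated replicate 1 turned the members' median to 0.06, and leaving out untreated replicate 3 gave -0.07. Without untreated replicate 3, 6 members had an unadjusted p under 0.05 and 0 passed the adjustment; that is 17.1% of the members, where 14.2% of all genes (1732) then lay under that threshold. These 6 were Syt2, Rims1, Rims2 and Ppfia3 with higher means, and Napa and Sv2a with lower means, in RG2833 rats. Single libraries weighed on these estimates: leaving out 1 library moved the log2 fold change by over 1.5 times, or changed its sign, for 32 of the 35 members, the exceptions being Syt2, Sv2a and Bsn. Untreated replicate 3 did so for 27 members and RG2833 replicate 5 for 25. With 5 rats a group, the 95% intervals of the members' fold changes ran from narrow to wide. For Syn1 the interval was 0.889 to 1.10-fold, for Snap25 0.708 to 1.16-fold, and for Doc2a, the widest on the log scale, 0.505 to 1.27-fold.

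**Figure D1:**
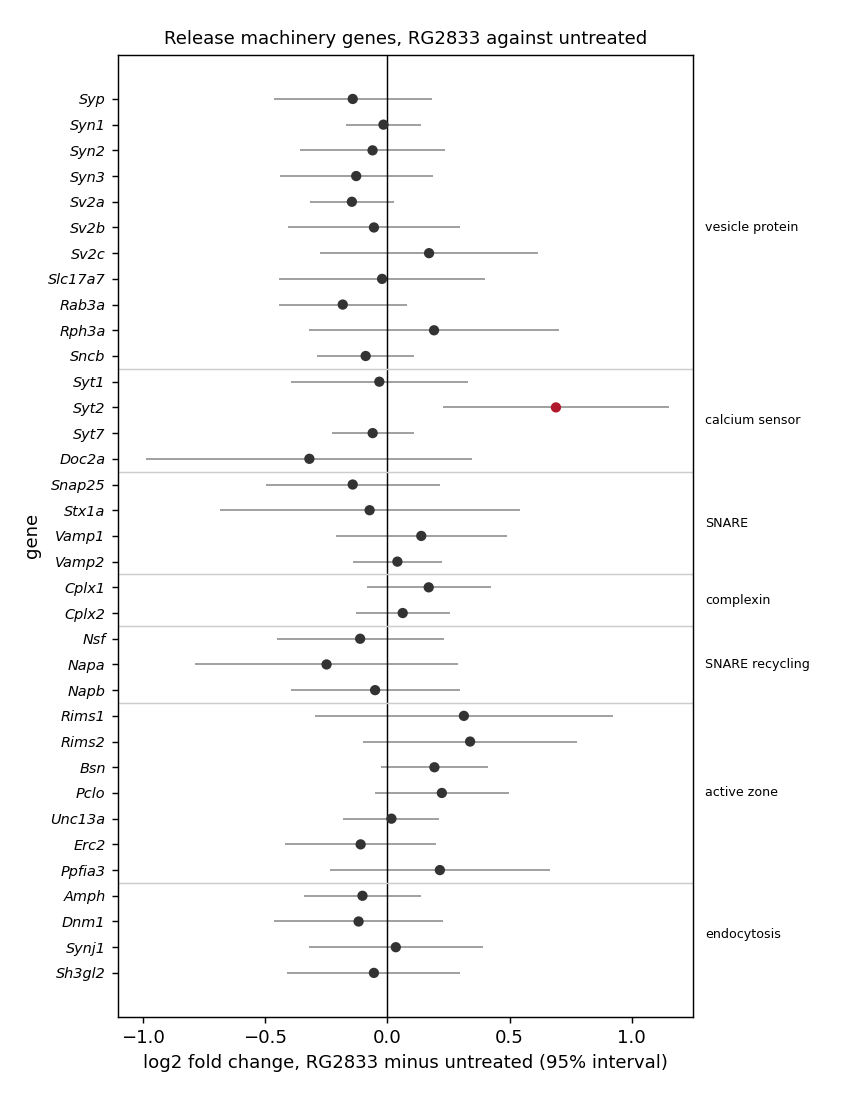
Log2 fold change of each of the 35 genes in RG2833 against untreated rats (x axis, points) with its 95% interval (lines), grouped by role; the gene with an unadjusted p under 0.05 is in red. The interval of Syt2 lies above 0, and those of the other 34 genes include 0.

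Among the calcium sensors, Syt2 had the largest difference of all 35 genes. Syt2 encodes synaptotagmin-2, the fast calcium sensor of inhibitory basket cell terminals and of many brainstem and spinal synapses. Its levels were 6.98, 3.33, 5.91, 3.98 and 6.08 CPM in untreated replicates 1 to 5 and 6.65, 7.33, 8.95, 9.46 and 10.0 CPM in RG2833 replicates 1 to 5. Of the RG2833 libraries, 4 lay above every untreated one, and replicate 1 lay between the highest pair of untreated libraries, so the groups overlapped. The counts behind these values ran from 65 to 151 per library. The means were 5.26 ± 1.54 CPM untreated and 8.48 ± 1.44 CPM with RG2833 (SD, n = 5 each). The log2 fold change was 0.69 (SE 0.21), with a 95% interval of 0.23 to 1.15; the unadjusted edgeR p was 0.00724 and the adjusted p 0.841, above the threshold. Permuting its log2 CPM alone over all regroupings (two-sided, exact) gave p = 0.0159, before any adjustment. Without untreated replicate 3, RG2833 replicate 4 and RG2833 replicate 5 together the log2 fold change was 0.58. In that fit the unadjusted edgeR p of Syt2 was 0.0535 and the adjusted p 0.909.

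Syt1, the main fast sensor of forebrain synapses, had means of 421 ± 96.4 CPM untreated and 411 ± 63.4 CPM with RG2833 (SD, n = 5 each). It was at 557, 369.6, 298, 439 and 439.8 CPM in the untreated and 435, 477, 455, 363 and 328 CPM in the RG2833 libraries. The RG2833 range lay within the untreated one, and the lowest values were those of untreated replicate 3 and RG2833 replicate 5. Its log2 fold change was -0.03 (SE 0.16; edgeR adjusted p = 0.995). Syt7, a slow sensor with high calcium affinity that serves asynchronous release and facilitation, was among the 3 most even members. It stood at 108, 119, 109, 116 and 115 CPM in untreated and 103, 103, 129, 99.02 and 109 CPM in RG2833 libraries, a log2 fold change of -0.06 (SE 0.08). Doc2a, a sensor of spontaneous and asynchronous glutamate release, was the most uneven of the 35, with an SD of 0.52 in log2 CPM over the 10 libraries. It was at 14.8, 13.4, 31.9, 25.1 and 13.5 CPM in untreated and 13.2, 11.1, 11.8, 18.9 and 24.1 CPM in RG2833 libraries. Untreated replicates 3 and 4 and RG2833 replicates 5 and 4 were its highest libraries. Between the groups Doc2a differed by -0.32 (SE 0.30) on the log2 scale. Leaving out untreated replicate 3 gave -0.08, and leaving out RG2833 replicate 5 gave -0.52.

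**Figure D2:**
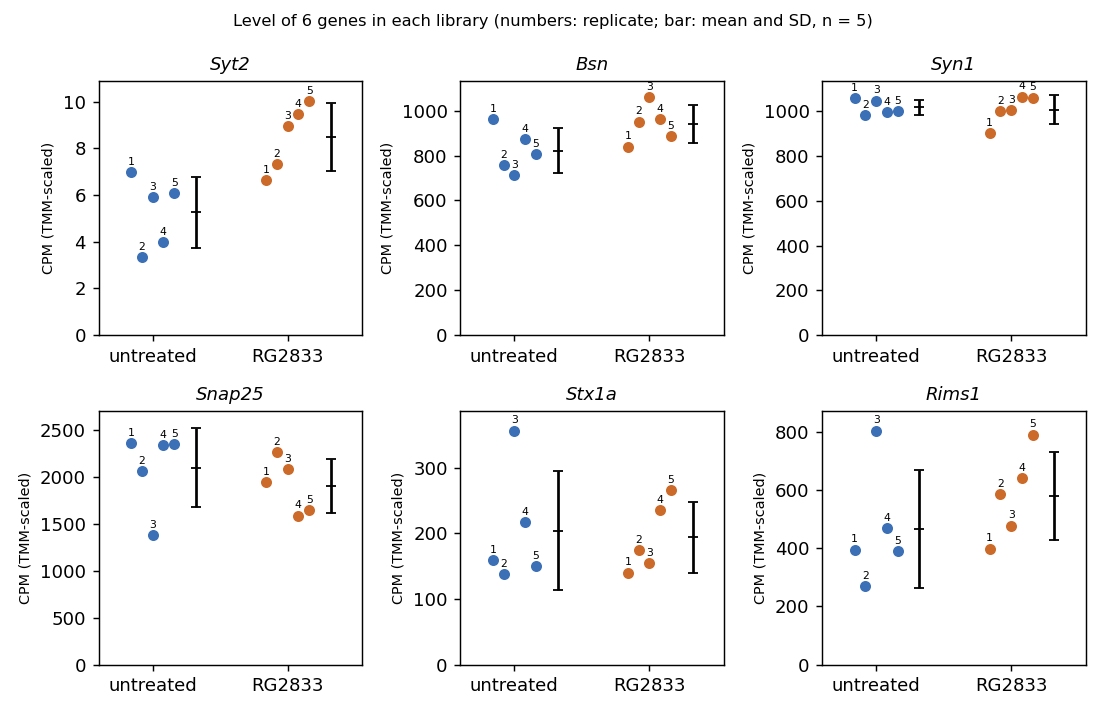
CPM of 6 genes in each library (y axes, from 0; points numbered by replicate), with the mean and SD of each group (n = 5) as a black bar. Syt2 is higher in most RG2833 libraries, Syn1 is even, and untreated replicate 3 is lowest in Snap25 and highest in Stx1a and Rims1.

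Members of the neuronal SNARE complex were high and low in different libraries. Stx1a is given by library because of its values, as are Nsf, Napa, Pclo, Sv2a, Rph3a and Ppfia3 further on. Snap25, one of the membrane SNAREs, was at 2366, 2066, 1385, 2346 and 2357 CPM in untreated and 1946, 2265, 2088, 1590.4 and 1648 CPM in RG2833 libraries. Untreated replicate 3 and RG2833 replicates 4 and 5 were its lowest libraries. Stx1a, the syntaxin of the same complex, was at 159.8, 138, 357, 217 and 149.7 CPM and 140.3, 174, 155, 235 and 266 CPM in the same order. The 4 libraries highest in Stx1a were untreated replicate 3, RG2833 replicates 5 and 4, and untreated replicate 4. Its spread over the 10 libraries was 2.59-fold from lowest to highest, against 1.71-fold for Snap25. Vamp2, the synaptobrevin of forebrain vesicles, was at 1448, 1209, 1497, 1417 and 1385 CPM in untreated and 1299.6, 1434, 1403, 1482 and 1539.7 CPM in RG2833 libraries. It was the second most even member, with a 1.27-fold spread. Vamp1, the synaptobrevin that prevails in spinal cord and brainstem and in fast-spiking interneurons, was at 284, 224, 151, 223 and 276 CPM and 262, 278, 286, 227 and 219.5 CPM. Its lowest library was untreated replicate 3, and the other 9 lay within 219.5 to 286 CPM. Between the groups the log2 fold changes were -0.14 (SE 0.16) for Snap25, -0.07 (SE 0.28) for Stx1a, 0.04 (SE 0.08) for Vamp2 and 0.14 (SE 0.16) for Vamp1. Without untreated replicate 3 the value for Vamp1 was 0.02. By edgeR the adjusted p was at least 0.937 for these 4 genes. For Stx1a, leaving out untreated replicate 3 gave 0.22 and leaving out RG2833 replicate 5 gave -0.21.

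Both complexins had higher means in RG2833 rats, with 95% intervals of the log2 fold change that include 0. Cplx1, the complexin of inhibitory and subcortical terminals, was at 599, 389.5, 512, 457 and 516 CPM in untreated and 496, 548, 522, 622 and 594 CPM in RG2833 libraries. RG2833 replicate 4 was the highest library and untreated replicate 2 the lowest, and 4 of the 5 untreated values lay below the RG2833 mean. Cplx1 had a log2 fold change of 0.17 (SE 0.11; edgeR adjusted p = 0.871). For Cplx2, the complexin of excitatory forebrain terminals, it was 0.06 (SE 0.09), with levels of 297 to 365 CPM in untreated and 306 to 407 CPM in RG2833 libraries.

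Of the 11 vesicle proteins, 9 had lower and 2 had higher means in RG2833 rats, and 0 had an unadjusted p under 0.05. Syp encodes synaptophysin, the most widely used marker of synaptic vesicles. It was at 613, 472, 372, 485 and 502 CPM in untreated and 480.3, 516, 486, 389 and 344 CPM in RG2833 libraries. The ranges overlapped from 372 to 516 CPM, and the log2 fold change was -0.14 (SE 0.15; edgeR adjusted p = 0.923). Syn1, which encodes synapsin I, a phosphoprotein that tethers vesicles of the reserve pool, was the most even of the 35 genes. Its levels were 1059, 983, 1049, 998 and 1003 CPM in untreated and 903, 999.9, 1006, 1066 and 1062 CPM in RG2833 libraries. Every library lay within a 1.18-fold range, and the log2 fold change was -0.02 (SE 0.07), with a 95% interval of -0.17 to 0.14. The other synapsins had log2 fold changes of -0.06 (SE 0.13) for Syn2 (383 to 625 and 376 to 514 CPM) and -0.13 (SE 0.14) for Syn3 (7.17 to 9.79 and 6.08 to 9.68 CPM in untreated and RG2833 libraries). Slc17a7 encodes VGLUT1, the transporter that loads glutamate into vesicles of cortical and hippocampal excitatory neurons. It was at 1917, 1649, 1029, 1442 and 1710.0 CPM in untreated and 1636, 1859, 1794, 1247 and 1098 CPM in RG2833 libraries. Untreated replicate 3 and RG2833 replicate 5 held the lowest value of their groups, and the means differed by -0.02 (SE 0.19) on the log2 scale. When single libraries were left out, that value changed sign in 5 of 10 fits and lay between -0.14 and 0.08.

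The SV2 glycoproteins, found on all synaptic vesicles, and the Rab3 pathway gave small differences of mixed sign. Sv2a, the binding site of the antiepileptic levetiracetam, was at 378, 306, 305, 353 and 352 CPM in untreated and 325, 325, 304, 290.5 and 286 CPM in RG2833 libraries. The untreated mean, 339 CPM, exceeded all 5 RG2833 values, and the ranges overlapped. Its log2 fold change was -0.14 (SE 0.08; exact permutation p = 0.0794, edgeR adjusted p = 0.841). For Sv2b it was -0.05 (SE 0.16), with 349 to 562 CPM in untreated and 335 to 549 CPM in RG2833 libraries. Sv2c, the isoform of basal ganglia and brainstem, was detected with 58 to 102 counts per library. Its levels were 5.89, 4.25, 4.36, 4.04 and 3.69 CPM in untreated and 4.19, 3.29, 6.33, 4.95 and 6.29 CPM in RG2833 libraries, which overlapped over most of their range (log2 fold change 0.17, SE 0.20). Rab3a, the vesicle GTPase that docks vesicles at the active zone, differed by -0.18 (SE 0.12) on the log2 scale, with 532 to 769 CPM in untreated and 479.9 to 656 CPM in RG2833 libraries. Rph3a encodes rabphilin, an effector of Rab3a. It was at 232, 225, 421, 295 and 237 CPM in untreated and 234, 259, 276, 357 and 483 CPM in RG2833 libraries, with its highest values in RG2833 replicate 5, untreated replicate 3 and RG2833 replicate 4. Its log2 fold change was 0.19 (SE 0.23) and went to -0.000368 without RG2833 replicate 5. Sncb, which encodes beta-synuclein, had one of -0.09 (SE 0.09), with 431 to 571 and 434 to 502 CPM.

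At the active zone, 6 of 7 members had higher means in RG2833 rats, with a median log2 fold change of 0.22, and 0 of the 7 had an unadjusted p under 0.05. Of 13 other active zone genes tested, 7 had higher means, with a median of 0.06, and 46.5% of all genes tested had higher means. Bsn and Pclo encode bassoon and piccolo, the giant scaffold proteins that cluster vesicles at release sites. Bsn was at 963, 757, 714, 873 and 806 CPM in untreated and 841, 951, 1061, 962 and 887 CPM in RG2833 libraries. The untreated mean, 823 CPM, was below all 5 RG2833 values, and untreated replicate 1 lay above 4 of them. Bsn had a log2 fold change of 0.19 (SE 0.10; exact permutation p = 0.0794, edgeR adjusted p = 0.841). Pclo was at 331, 252.2, 219, 331 and 321 CPM in untreated and 323, 340.4, 393, 326 and 314 CPM in RG2833 libraries, and its log2 fold change was 0.22 (SE 0.12). Untreated replicates 2 and 3 were the lowest libraries for Pclo, and the other 8 lay within 314 to 393 CPM.

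Rims1 and Rims2 encode the RIM proteins, which bind Rab3 on the vesicle and hold calcium channels at the release site. Rims1 was at 395, 270.4, 804, 470.1 and 389 CPM in untreated and 399, 587, 477, 641 and 790.1 CPM in RG2833 libraries. Its SD of log2 CPM over all libraries was the third largest of the 35. Untreated replicate 3 was the highest library of all and untreated replicate 2 the lowest, so the untreated range held the whole RG2833 range. Its log2 fold change was 0.31 (SE 0.28; edgeR adjusted p = 0.919). Without untreated replicate 3 this was 0.60, and without untreated replicate 2 it was 0.17. Rims2 was at 86.2 to 174 CPM in untreated and 130.4 to 231 CPM in RG2833 libraries (log2 fold change 0.34, SE 0.20). Ppfia3, which encodes the scaffold liprin-alpha-3, was at 293, 238, 469, 306 and 289 CPM in untreated and 284, 335, 300.2, 442 and 490.4 CPM in RG2833 libraries. Its 3 highest libraries were RG2833 replicate 5, untreated replicate 3 and RG2833 replicate 4, as for Rph3a, and its log2 fold change was 0.22 (SE 0.20). Leaving out RG2833 replicate 5 gave 0.09 for Ppfia3, and leaving out untreated replicate 3 gave 0.39. Unc13a, the priming factor Munc13-1, was among the even members, at 190.1 to 235 CPM in untreated and 190.1 to 251 CPM in RG2833 libraries (log2 fold change 0.02, SE 0.09). Erc2, a scaffold that binds RIM, was at 51.2 to 81.5 CPM in untreated and 48.6 to 73.2 CPM in RG2833 libraries (log2 fold change -0.11, SE 0.14). It was the 1 active zone member with a lower mean in RG2833 rats.

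All 7 genes of SNARE recycling and endocytosis had their lowest untreated value in replicate 3 and their lowest RG2833 value in replicate 5, and 6 of the 7 had lower means in RG2833 rats. Nsf, the ATPase, was at 829, 671, 459, 637 and 692 CPM in untreated and 634, 679, 703, 539 and 489.9 CPM in RG2833 libraries (log2 fold change -0.11, SE 0.15). Napa, which encodes its adaptor alpha-SNAP, was at 347, 431, 171, 299 and 405 CPM and 321, 321, 339, 208 and 203 CPM. In both genes untreated replicate 3 and RG2833 replicates 5 and 4 were the lowest libraries. Napa had a log2 fold change of -0.25 (SE 0.24) and Napb, the neuronal beta-SNAP, one of -0.05 (SE 0.16), with Napb at 56.8 to 108 CPM in untreated and 62.3 to 87.6 CPM in RG2833 libraries. Without untreated replicate 2 the value for Napa was -0.13, and without untreated replicate 3 it was -0.41. Dnm1 encodes dynamin-1, the GTPase that pinches off endocytosed vesicles. It was at 1902, 1656, 1079.8, 1494 and 1717 CPM in untreated and 1534, 1662, 1595, 1271 and 1173 CPM in RG2833 libraries, again lowest in untreated replicate 3 and RG2833 replicates 5 and 4. For Dnm1 the log2 fold change was -0.12 (SE 0.16; edgeR adjusted p = 0.947). For Amph (amphiphysin) it was -0.10 (SE 0.11), for Sh3gl2 (endophilin A1) -0.05 (SE 0.16) and for Synj1 (synaptojanin-1) 0.03 (SE 0.16), each with overlapping groups. Their untreated and RG2833 levels were 113 to 170.1 and 111 to 143 CPM for Amph, 98.7 to 195 and 124 to 169.7 CPM for Sh3gl2, and 236 to 456 and 293 to 404 CPM for Synj1.

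**Figure D3:**
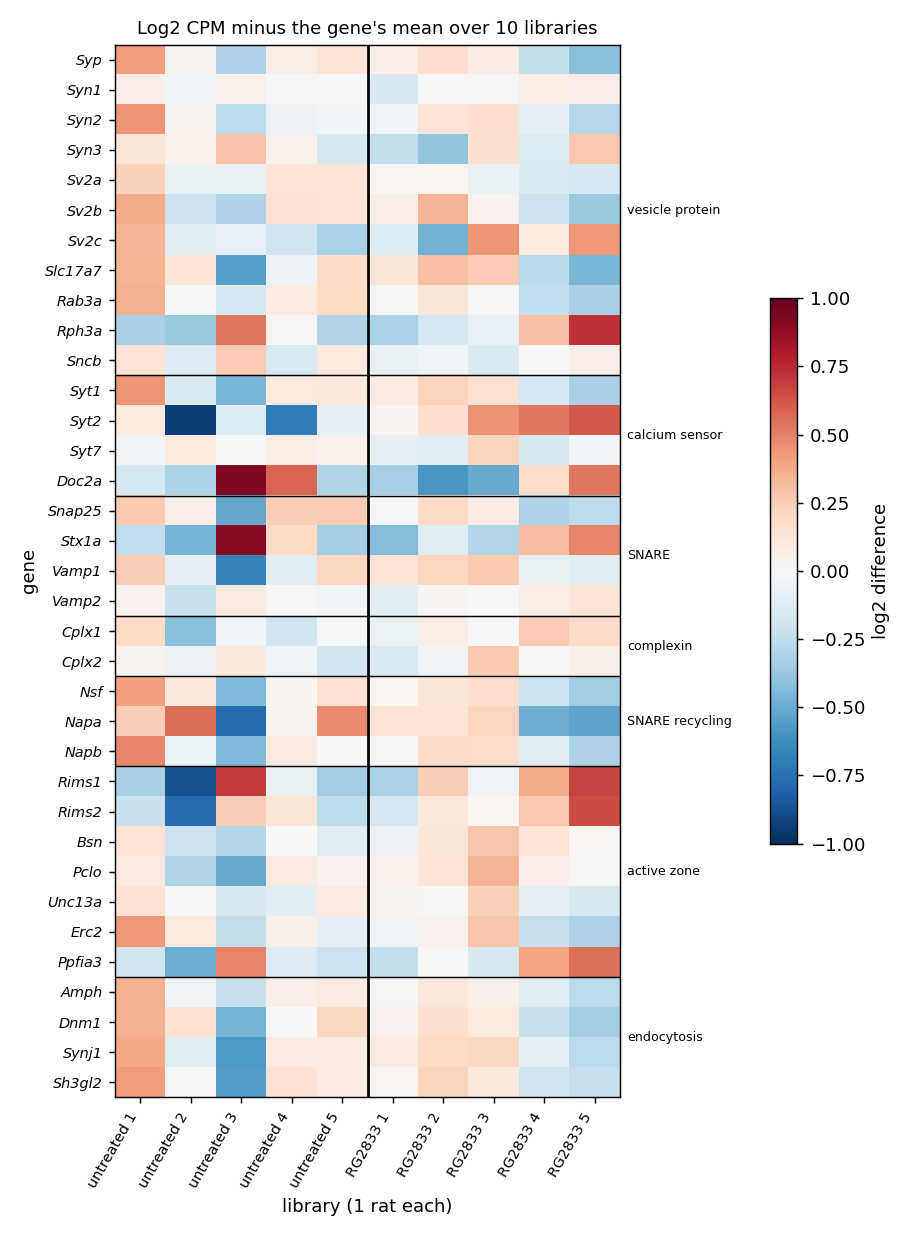
Log2 CPM of each gene (rows, by role) in each library (columns, 1 rat each) minus the gene's mean over the 10 libraries; red is above and blue below that mean. The number of genes below their mean runs from 7 in untreated replicate 1 to 25 in untreated replicate 2, with 24 in untreated replicate 3, 20 in RG2833 replicates 1 and 4 and 19 in RG2833 replicate 5; Rph3a, Doc2a, Stx1a, Rims1, Rims2 and Ppfia3 are red in untreated replicate 3 and RG2833 replicates 4 and 5.

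The median size of the members' log2 fold changes, in either direction, was 0.12, against 0.09 for all genes tested. The median SD of their log2 CPM over the 10 libraries was 0.26, against 0.19 for all genes tested. Untreated replicate 3 was the lowest of the 5 untreated libraries for 20 of the 35 members (57.1%, against 36.4% of all genes tested) and the highest for 10 (28.6%, against 32.1% of all genes). RG2833 replicate 5 was the lowest RG2833 library for 18 members (51.4%, against 27.2% of all genes) and the highest for 10 (28.6%, against 26.3% of all genes), so these counts of highest values were near the background. Untreated replicate 1 was the highest untreated library for 22 members (62.9%, against 18.8% of all genes). In 18 members (51.4%, against 17.9% of all genes) untreated replicate 3 and RG2833 replicate 5 were both the lowest of their group. These were Syp, Syn2, Sv2a, Sv2b, Slc17a7, Rab3a, Syt1, Vamp1, Nsf, Napa, Napb, Pclo, Unc13a, Erc2, Amph, Dnm1, Synj1 and Sh3gl2, which span every role but the complexins. In 9 members (25.7%, against 16.1% of all genes) both were the highest: Syn3, Rph3a, Sncb, Doc2a, Stx1a, Vamp2, Rims1, Rims2 and Ppfia3. These 2 libraries were picked out after the values were seen, so the shares are a description.

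Markers of neighbouring regions and of other cell types were read in the same libraries. Neocortex markers (7 of 7 tested) summed to 286 CPM in untreated replicate 3, where the remaining untreated libraries held 147 to 220.3. In RG2833 rats the sums were 282 CPM in replicate 5, 251.6 CPM in replicate 4 and 168 CPM in each of replicates 1, 2 and 3. Cux2, a transcription factor of upper cortical layers, was at 141 CPM in untreated replicate 3, 106 and 92.4 CPM in RG2833 replicates 5 and 4, 59.9 CPM in untreated replicate 4 and 28.3 to 41.0 CPM in the other 6 libraries. Without Cux2, the other 6 neocortex markers summed to 145 CPM in untreated replicate 3, against 113 to 160.4 CPM in the remaining untreated libraries, and to 175 CPM in RG2833 replicate 5 and 159 CPM in replicate 4, against 127 to 139.6 CPM in replicates 1 to 3. Single markers of the list went different ways: Fezf2 was lowest of the 10 libraries in untreated replicate 3 (20.8 CPM), and Lamp5 was lowest in RG2833 replicate 5 (42.5 CPM). Striatum markers (6 of 6 tested) summed to 272 CPM in untreated replicate 3 and 270.0 CPM in RG2833 replicate 5, with 133 to 209 CPM elsewhere. The CA1 pyramidal cell markers (4 of 4 tested) summed to 272 to 821 CPM in untreated and 343 to 690.3 CPM in RG2833 libraries. All 4 had higher means in RG2833 rats, with a median log2 fold change of 0.25 and 0 at an unadjusted edgeR p under 0.05. Among them Fibcd1 and Pou3f1 were lowest of the 10 libraries in untreated replicate 3 (35.5 and 19.6 CPM), where Wfs1 was at 298 CPM, the second highest untreated value. Prox1, the transcription factor that defines dentate granule cells, was at 4.30 CPM in untreated replicate 3, 23.2 CPM in RG2833 replicate 5 and 43.5 CPM in untreated replicate 1. Grik4, a kainate receptor subunit rich in CA3, was at 29.5, 59.1 and 137 CPM in the same libraries. The summed microglia markers (9 of 9 tested) were 1031, 829.6 and 577 CPM there, and those of endothelium (6 of 7 tested) 486, 535 and 249 CPM. That endothelium sum of untreated replicate 1 was the lowest of the 10 libraries. Prox1 in RG2833 replicate 4, at 21.5 CPM, was below its value in RG2833 replicate 5. Astrocyte markers (9 of 10 tested) had their highest untreated sum in untreated replicate 3, at 7903 CPM against 5409 to 6439 CPM in the remaining untreated libraries. In RG2833 rats they were highest in replicates 4 and 5, at 8743 and 8734 CPM, against 6123 to 7953 CPM in replicates 1 to 3. All 9 had higher means in RG2833 rats, with a median log2 fold change of 0.33. Of the 9, 3 had an unadjusted edgeR p under 0.05, where 5.66% of all genes tested lay under that threshold. Their adjusted p was at least 0.841. The mean log2 CPM of the astrocyte markers gave an exact permutation p of 0.0873. Thalamus and oligodendrocyte markers did not set these 2 libraries, untreated replicate 3 and RG2833 replicate 5, apart in the same direction. Thalamus markers (7 of 8 tested) summed to 88.2 CPM in untreated replicate 3 and 93.9 CPM in RG2833 replicate 5, within the range of the other libraries. Oligodendrocyte markers (8 of 8 tested) had their lowest sum of the 10 libraries in untreated replicate 3 (7213 CPM) and their highest in RG2833 replicate 5 (15904 CPM). The ribosomal RNA genes Rn45s and Rn28s took 4.07% (95% Wilson interval 4.06 to 4.08, counting error only) to 11.41% (11.40 to 11.43) of the counts in untreated libraries, with untreated replicate 1 the lowest and replicate 3 the highest. In RG2833 libraries the share ran from 4.93% (4.92 to 4.94) in replicate 2 to 9.37% (9.35 to 9.38) in replicate 4, and it was 8.71% (8.69 to 8.72) in replicate 3, close to the 8.92% (8.90 to 8.93) of replicate 5. Fewer cells of a type and less RNA per cell cannot be told apart in such tissue samples. The part of these markers in the members' pattern was not tested.

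A total of 6 pairs of members, picked after their values were seen, were followed across the 10 libraries. They are a description and carry no p, and values of 1 library share its scaling. For each pair r was also taken without the 2 libraries farthest from the median of the second gene, and on deviations from the group means (within groups). Pclo and Bsn gave Pearson r = 0.90 and Spearman rho = 0.81, with r = 0.75 without the 2 farthest libraries and 0.85 within groups. Syt1 and Snap25 gave Pearson r = 0.88 and Spearman rho = 0.88, with r = 0.79 without the 2 farthest libraries and 0.90 within groups. Stx1a and Vamp2 gave Pearson r = 0.75 and Spearman rho = 0.94, with r = 0.79 without the 2 farthest libraries and 0.77 within groups. These 3 pairs were positive in each reading. Stx1a and Snap25 gave Pearson r = -0.77 and Spearman rho = -0.45, with r = -0.41 without the 2 farthest libraries and -0.80 within groups. Snap25 and Vamp2 gave Pearson r = -0.41 and Spearman rho = -0.38, with r = -0.79 without the 2 farthest libraries and -0.37 within groups. Rims1 and Unc13a gave Pearson r = -0.57 and Spearman rho = -0.59, with r = -0.63 without the 2 farthest libraries and -0.65 within groups. These 3 pairs were negative in each reading, and for Stx1a and Snap25 the value was smaller in size without untreated replicate 3 and RG2833 replicate 4.

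Syt2, Vamp1, Cplx1 and Sv2c, the family members known from fast-spiking interneurons and subcortical regions, were compared with Pvalb, which encodes parvalbumin, the calcium buffer of fast-spiking interneurons. Pvalb was at 38.5, 29.6, 30.6, 31.5 and 43.1 CPM in untreated and 43.4, 43.6, 40.7, 46.6 and 49.6 CPM in RG2833 libraries, with untreated replicates 2, 3 and 4 the lowest (log2 fold change 0.37, SE 0.11; exact permutation p = 0.0159, edgeR adjusted p = 0.841). Syt2 followed Pvalb over the 10 libraries, with Pearson r = 0.85 (permutation p = 0.00137, adjusted over 8 relations 0.0110) and Spearman rho = 0.85 (p = 0.00278, adjusted 0.0222). Without the 2 libraries farthest from the median of Pvalb, r was 0.85. Both genes had higher means in RG2833 rats, which enters this r. As deviations from the group means, r was 0.66 (exact permutation p within groups = 0.105, adjusted 0.280), so the relation did not pass within groups. In untreated replicates 2, 3 and 4 Pvalb (29.6 to 31.5 CPM) also lay apart from the rest (38.5 to 49.6 CPM). Cplx1 had r = 0.75 with Pvalb (permutation p = 0.0101, adjusted 0.0405), with rho = 0.67 (p = 0.0392, adjusted 0.157). Its r was 0.66 without the 2 farthest libraries and 0.68 within groups (exact permutation p = 0.0751, adjusted 0.280). For Vamp1 (r = 0.50, permutation p = 0.132; rho = 0.14, p = 0.708) and Sv2c (r = 0.25, p = 0.474; rho = 0.08, p = 0.837) the relation did not pass.

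Thalamic tissue also expresses Syt2, Vamp1 and Cplx1, so its markers were set beside the same 4 genes. The thalamus markers (7 of 8 tested) summed to 80.9 to 116 CPM in untreated and 71.3 to 93.9 CPM in RG2833 libraries. Syt2 went against their mean log2 CPM (r = -0.74, permutation p = 0.0155, adjusted 0.0413; rho = -0.59, p = 0.0809, adjusted 0.216). Without untreated replicates 2 and 4 that r was -0.00910, so it rests on those libraries. Within groups it was -0.73 (exact permutation p = 0.0549, adjusted 0.280). For Cplx1 (r = -0.66, permutation adjusted p = 0.0768), Vamp1 (-0.000897, 0.998) and Sv2c (-0.21, 0.638) the relation did not pass. The summed interneuron markers (8 of 8 tested) ran from 327 to 563 CPM in untreated and from 386 to 451 CPM in RG2833 libraries. Of these 8 genes 5 had lower means in RG2833 rats, and the list's median log2 fold change was -0.11. At an unadjusted edgeR p under 0.05 were 3 of 8, Pvalb with a higher mean and Sst and Npy with lower means. Of all genes tested 5.66% lay under that threshold, and these markers each had an adjusted p of 0.841. Beside Pvalb, the higher ones were Vip and Lhx6, with log2 fold changes of 0.18 and 0.11. Gad1 and Gad2, the enzymes that make GABA, were at -0.10 and -0.11, the GABA transporter gene Slc32a1 at -0.18 and Npy at -0.44 on the same scale. Sst, the somatostatin gene of another interneuron class, had a log2 fold change of -0.50 (SE 0.20; exact permutation p = 0.0873, edgeR adjusted p = 0.841). The part of interneuron RNA in the value of Syt2 was not tested.

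**Figure D4:**
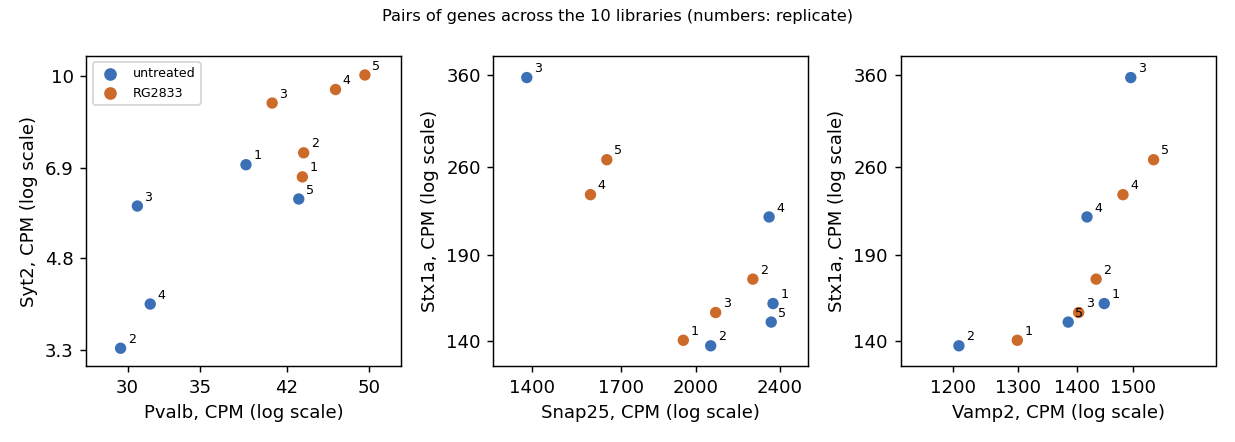
CPM of Syt2 against Pvalb, Stx1a against Snap25, and Stx1a against Vamp2 in the 10 libraries (log axes; numbers are replicates). Syt2 is lowest where Pvalb is lowest and highest where Pvalb is highest, and Stx1a is highest in untreated replicate 3, where Snap25 is lowest.

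The balance between family members was followed as the log2 ratio of 2 genes in a library, which does not depend on how libraries are scaled. Of 11 ratios, 0 differed between the groups at an adjusted p under 0.05 in a two-sided exact permutation test. The number with an unadjusted p under 0.05 was 1, the ratio of Syt2 to Syt1. It was -6.31 ± 0.47 in untreated and -5.58 ± 0.45 in RG2833 libraries (SD, n = 5 each), a difference of 0.73 (exact permutation p = 0.0476, adjusted over the 11 ratios 0.524). Untreated replicate 3, at -5.63, lay among the RG2833 values of -6.01 to -5.01. For Vamp1 over Vamp2 the difference was 0.12 (exact permutation p = 0.603) and for Cplx1 over Cplx2 0.12 (exact permutation p = 0.405). For Slc17a6, the glutamate transporter of subcortical neurons, over Slc17a7 it was -0.18 (exact permutation p = 0.571), and it lay between -0.34 without untreated replicate 2 and -0.01 without untreated replicate 3. The difference for Rims2 over Rims1 was -0.02 and for Pclo over Bsn 0.04. Pclo over Bsn was the most constant ratio within the RG2833 group, with an SD of 0.07. The remaining 5 ratios, among the synapsins, SV2 isoforms and SNAP adaptors, differed by -0.12 to 0.29 (smallest exact permutation p = 0.262).

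Of 72 other presynaptic genes on a second list, 69 were tested, and 0 passed at an adjusted p under 0.05. The list holds relatives of the members and their partners, such as the clathrin adaptor subunits. In RG2833 rats 30 had higher and 39 lower means, with a median log2 fold change of -0.03. At an unadjusted p under 0.05 there was 1 of 69, against 5.66% of all genes. This was Syt5, another member of the synaptotagmin family, at 209.5, 175, 190.2, 203 and 197 CPM in untreated and 178, 182, 168, 166 and 160.3 CPM in RG2833 libraries. Of the untreated libraries 4 lay above every RG2833 one, and untreated replicate 2 lay among the RG2833 values. Syt5 had a log2 fold change of -0.19 (SE 0.06; exact permutation p = 0.0238, edgeR adjusted p = 0.841). Without untreated replicate 3 there were 7 such genes, where 14.2% of all genes lay under the threshold, and 0 passed the adjustment. Cadps2, Itsn2 and Cplx4 of that list were not analysed here. Levels of different genes were not ranked, since transcript lengths were not used here.

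Histone deacetylases act on the chromatin of promoters, and REST, a repressor of neuronal genes that binds the RE1 element, recruits them. For 30 of the 35 members RefSeq's promoter table (build GRCr8) held the bases before a start site, and the 250 directly before it were read. Their median GC content was 66.4%, against 51.2% over all 33469 promoters of the same length. The GC box GGGCGG was found on either strand in 22 of the 30 (73.3%, against 30.5% of all). The cAMP response element TGACGTCA was found in 4, Napa, Vamp1, Sh3gl2 and Syn1 (13.3%, against 1.59% of all). The TATA box TATAAA was found in 0 of 30 (12.9% of all). The background held every listed promoter and was not limited to the genes tested. The difference in GC content was not taken into account in these shares. The full RE1 pattern of REST, which joins the parts TTCAGCACC and GGACAG, occurred with at most 3 mismatches in 1, Rph3a, and in 0.0866% of all promoters (29). A match had to lie wholly within the 250 bases, so an element farther out or cut by the edge was not counted. The Syn1 window opens with ACAGAGCC, letters that fit the end of the full pattern (ACAGNGCC, N being any base). The bases before that window were not read. The right part of RE1, GGACAG, alone was found in 6 of 30 (20%, against 18.2% of all), and the left part TTCAGCACC in 0 (0.305% of all). For Rph3a, Sv2b, Vamp2, Napa, Dnm1, Cplx2 and Syt2 the whole window lies inside the gene's RefSeq span, so the RE1 match of Rph3a and the cAMP response element of Napa lie inside those genes. Other windows lie partly inside, among them Syt1 (247 of 250 bases), Rims1 (226), Erc2 (113) and Sncb (109). Some of the GC boxes counted above therefore lie within genes. The matches are letters in a window and no measure of binding. The build differs from rn6, which the submitters' notes name for the counts, so the coordinates hold for GRCr8. In Rph3a that match reads GTCAGTACCACGGACAGCACC on the minus strand. The windows shown, 5′ to 3′ in the direction of the gene and cut where the gene's RefSeq span begins, are those of the most even member (Syn1) and of 1 member low (Slc17a7) and 1 high (Stx1a) in untreated replicate 3 and RG2833 replicate 5. Capitals mark matches to the motifs named above on either strand. Syn1 lies at chrX:3725495-3725744, plus strand, with 1 cAMP response element. Slc17a7 lies at chr1:104785955-104786171, plus strand, with 3 GC boxes, 2 of which share a base, and 1 RE1 right part. Stx1a lies at chr12:27306548-27306721, minus strand, with 2 GC boxes.
Syn1: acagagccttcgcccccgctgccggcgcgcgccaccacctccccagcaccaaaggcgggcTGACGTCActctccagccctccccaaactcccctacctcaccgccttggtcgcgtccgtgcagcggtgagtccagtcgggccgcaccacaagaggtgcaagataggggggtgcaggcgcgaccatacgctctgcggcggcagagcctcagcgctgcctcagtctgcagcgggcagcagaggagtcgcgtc
Slc17a7: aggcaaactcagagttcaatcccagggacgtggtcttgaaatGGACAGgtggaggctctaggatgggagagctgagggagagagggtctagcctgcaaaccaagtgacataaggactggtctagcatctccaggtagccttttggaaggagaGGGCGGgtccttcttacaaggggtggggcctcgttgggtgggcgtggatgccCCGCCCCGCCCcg
Stx1a: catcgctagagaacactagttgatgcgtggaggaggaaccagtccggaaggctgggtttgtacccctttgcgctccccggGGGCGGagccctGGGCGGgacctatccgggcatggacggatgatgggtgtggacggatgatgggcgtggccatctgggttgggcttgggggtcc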

How the data were processed

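RNA sequencing of 10 rat hippocampi was used, as 2 tables of 17168 genes. The authors deposited expected counts per gene, and the submitters' processing notes name RSEM 1.2.15, Bowtie2 2.1.0, bcl2fastq 2.17, edgeR and build rn6; annotation and filters are not given in the sources used here. The authors' second table holds a TMM-normalized CPM signal; 100% of its values were whole reads (within 0.01 read) and at least 99.9% equalled the rounded counts, and the test on these reads called 0 genes. After rounding, the counts went into edgeR 4.0.16 (R 4.3.3) with filterByExpr (minimum count 10, total 15), TMM, robust quasi-likelihood F test, Benjamini-Hochberg adjustment over 12161 genes at 0.05. CPM divide counts by the TMM-scaled library size; a prior count of 2 was added for log2 CPM. Standard errors came from the F statistic. Exact tests used all regroupings of 5 and 5 libraries (smallest p 0.00794). P-values of group differences set them against the variation between rats, and those of correlations come from permuting libraries. Over all 45 pairs of libraries, differences exceeded sampling noise (chi-square per gene at least 7.43). Limma 3.58.1 and DESeq2 1.42.0 served as alternatives. The members, lists and rules were chosen with earlier results of these data known. Named genes were all members; values of every library were given for those with an unadjusted p under 0.05, 8 well known members, the 4 subcortical or interneuron isoforms, and the 3 most and least even, with others added where a result turned on them.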

Additional observations from a re-analysis of the deposited data

Results flagged for a closer look

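Libraries far from the rest of their group were looked for in 96 sets of values (35 genes, 11 ratios and 2 library measures in 2 groups), by whether the gap to the nearest value exceeded 0.71 of the whole range. Chance gives about 4.8 such sets, and 2 were found, both in untreated replicate 3. Snap25 was at 10.4 log2 CPM there, where its group mates lay between 11.01 and 11.21, and the gap was 0.747 of the range. The log2 ratio of Rims2 to Rims1 was -2.21 there, against -1.66 to -1.56 in its group mates, and the gap was 0.845 of the range. Without this library the log2 fold change of Snap25 was -0.26 and the difference of the Rims2 to Rims1 ratio -0.13, with edgeR and exact permutation adjusted p-values of 0.364 and 0.524.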

How the results depend on the processing

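Under 21 alternatives to the fit, 0 members and 0 other presynaptic genes passed at an adjusted p under 0.05, and 0 ratios did under theirs; DESeq2 called 7 genes of all, the other tools 0. The smallest adjusted p of a member was 0.292 (Syt2 without untreated replicate 3), and for Syt2 the log2 fold change stayed between 0.56 and 0.81. Of all genes, 688 had an unadjusted p under 0.05. That number was 375 to 1732 when 1 library was left out. In all other alternatives, the fits without several libraries together included, it lay between 401 (replicate block) and 1266 (limma-voom with sample weights). For members it was 1, against 3 in limma-voom, 2 without untreated replicate 2 and RG2833 replicate 1 together, 0 without untreated replicate 3 and RG2833 replicates 4 and 5 together (chosen after the data were seen), and 1 to 6 with 1 library left out. For other presynaptic genes it was 1, against 2 with upper-quartile normalization and in DESeq2, 6 in limma-voom, 4 and 2 in the same 2 sets, and 1 to 7 with 1 library left out. The members' median log2 fold change ran from -0.07 to 0.06. Of 35 members, 23 kept their sign under every alternative. Sign changes outside single-library sets were 0.0016 for Syn1 and -0.014 for Synj1 without the choroid plexus libraries; 0.025 for Sv2b, 0.067 for Slc17a7 and 0.0086 for Syt1 without untreated replicate 3 and RG2833 replicates 4 and 5; and 0.051 for Stx1a and -0.00642 for Synj1 in limma-voom. Leaving out 1 library changed the sign in these ranges: Syn1 -0.0342 to 0.0210, Syn2 -0.126 to 0.0605, Sv2b -0.155 to 0.0400, Slc17a7 -0.136 to 0.0803, Rph3a -0.000368 to 0.379, Syt1 -0.133 to 0.0901, Stx1a -0.212 to 0.223, Vamp2 -0.00518 to 0.0741, Napb -0.148 to 0.0856, Unc13a -0.0456 to 0.0612, Synj1 -0.0781 to 0.147 and Sh3gl2 -0.173 to 0.0554. Among ratios these were Vamp1 to Vamp2 (-0.0505 to 0.201), Syn2 to Syn1 (-0.115 to 0.0586), Rims2 to Rims1 (-0.133 to 0.0297) and Pclo to Bsn (-0.00587 to 0.0870). The cause was not tested. The groups share replicate numbers 1 to 5, but same-numbered rats did not deviate together (correlations of -0.49 to -0.03 over 5 pairs, 0 of 10 libraries closest to their own number), so the numbers were not taken as pairs; with the replicate block 0 genes were called. Depth limits Sv2c (58 to 102 counts per library) and Syt2 (65 to 151) most.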
